A study of Mus musculus with 8 samples.

Results

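The transcripts described are 10 genes that run mitosis: the 4 subunits of the chromosomal passenger complex (Aurkb, Birc5, Incenp and Cdca8), the kinases Aurka and Plk1, the spindle checkpoint kinases Bub1, Bub1b and Ttk, and the centromere protector Sgo1. They were chosen by name from the 55487 gene identifiers of the count table, and all 10 were among the 12060 genes with enough counts to be tested. The cells were muscle stem cells (MuSCs) of mice that the labels call old. The study's methods describe its aged mice in general as C57BL/6JRj males of 23 to 25 months, and the exact age of the pooled mice is not given in the labels. Each of 4 pools held the cells of 2 mice, which the study's methods describe as sorted without CD31, CD45, CD11b and SCA1 and with CD34 and ITGA7, and was split between a culture with vehicle (1% DMSO) and a culture with nicotinamide and pyridoxine (NAM/PN, 1 mM in the labels). Both cultures lasted 72 hours in growth medium, which gave 8 libraries, 4 for each condition. The labels name no transgene, both conditions held aged cells alone, and NAM and PN were not given separately, so that their effects cannot be told apart. The question was whether these transcripts differed between NAM/PN and vehicle.

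The passenger complex brings the kinase Aurora B to centromeres, where it releases faulty attachments of chromosomes to spindle fibres, and later to the spindle midzone, where it acts in cytokinesis. Plk1 and Aurora A drive mitotic entry and build the spindle poles, and the checkpoint kinases Ttk, Bub1 and BubR1 hold the cell in mitosis until every kinetochore is attached. MuSCs are quiescent in resting muscle, and these genes, which are transcribed late in the cell cycle, are known as signs of the proliferation that follows their activation. Many promoters of this kind carry a CHR element, which the DREAM and MuvB complexes bind, downstream of CCAAT boxes, which NF-Y binds.

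Promoter windows from RefSeq on GRCm38.p6, covering 250 bases before and 50 bases from the annotated start, were found for 8 of the 10 genes. The windows printed are those of the 3 transcripts with the smallest p-values (Birc5, Bub1 and Sgo1) and that of Plk1, whose means lay close together, so that they can be compared. Each reads 5′ to 3′ along the gene's own strand. Capitals mark every match to the letters of a CHR element or a CCAAT box, wherever it lies in the window. CHR spelling 1 is TTTGAA, spelling 2 is TTTAAA and spelling 3 is TTCGAA. The other strand of a CCAAT box reads ATTGG. The windows are chr11:117848987-117849286 (plus strand) for Birc5, chr2:127831810-127832109 (minus strand) for Bub1, chr17:53689266-53689565 (minus strand) for Sgo1 and chr7:122159185-122159484 (plus strand) for Plk1.
Birc5: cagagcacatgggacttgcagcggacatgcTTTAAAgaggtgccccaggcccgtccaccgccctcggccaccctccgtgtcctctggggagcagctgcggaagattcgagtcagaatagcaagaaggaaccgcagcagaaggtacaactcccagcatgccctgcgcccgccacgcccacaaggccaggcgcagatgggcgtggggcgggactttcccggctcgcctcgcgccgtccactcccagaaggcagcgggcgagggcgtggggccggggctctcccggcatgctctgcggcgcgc
Bub1: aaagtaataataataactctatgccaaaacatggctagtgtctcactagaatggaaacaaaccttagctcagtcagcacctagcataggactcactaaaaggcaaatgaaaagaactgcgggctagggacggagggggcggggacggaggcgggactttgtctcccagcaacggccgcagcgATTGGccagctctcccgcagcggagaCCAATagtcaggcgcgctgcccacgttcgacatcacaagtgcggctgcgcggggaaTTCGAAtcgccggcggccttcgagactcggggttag
Sgo1: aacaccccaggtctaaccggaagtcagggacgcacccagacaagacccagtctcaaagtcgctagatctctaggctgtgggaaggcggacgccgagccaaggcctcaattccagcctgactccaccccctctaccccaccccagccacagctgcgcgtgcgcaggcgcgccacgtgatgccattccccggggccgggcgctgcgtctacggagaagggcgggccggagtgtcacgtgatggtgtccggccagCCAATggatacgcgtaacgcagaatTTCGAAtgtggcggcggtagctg
Plk1: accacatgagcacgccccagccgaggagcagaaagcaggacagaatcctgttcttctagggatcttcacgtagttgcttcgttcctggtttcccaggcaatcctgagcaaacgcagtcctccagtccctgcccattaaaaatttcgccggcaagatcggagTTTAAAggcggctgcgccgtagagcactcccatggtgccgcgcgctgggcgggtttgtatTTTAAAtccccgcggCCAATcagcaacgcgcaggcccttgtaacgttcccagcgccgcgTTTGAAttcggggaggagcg

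The Bub1 window held TTCGAA at base +15 after 2 CCAAT boxes, and the Sgo1 window held TTCGAA at +28 after a CCAAT box at +3, counted from +1 at the start site. In Plk1, TTTGAA began at +31, a CCAAT box lay at -14, and TTTAAA occurred at -89 and -29. Birc5 differed from these in that its window held no CCAAT box and, as its sole CHR spelling, TTTAAA at -220. Both strands were searched, and the TTTGAA of Cdca8 ends on the first base of a reversed CCAAT box.

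TTTGAA was found in 5 of the 8 windows (17.9% of the 32851 windows of all genes), TTTAAA in 3 (13.2%) and CCAAT in 7 (37.4%). TTCGAA, added to the search after the sequences had been read, was found in 3 of the 8 (1.56% of all windows). A CHR spelling began within the first 50 transcribed bases in 7 of the 8, all but Birc5, against 3.58% of all windows. That stretch was also looked at after the sequences had been read. A match describes letters, and binding was not measured here.

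**Figure D1:**
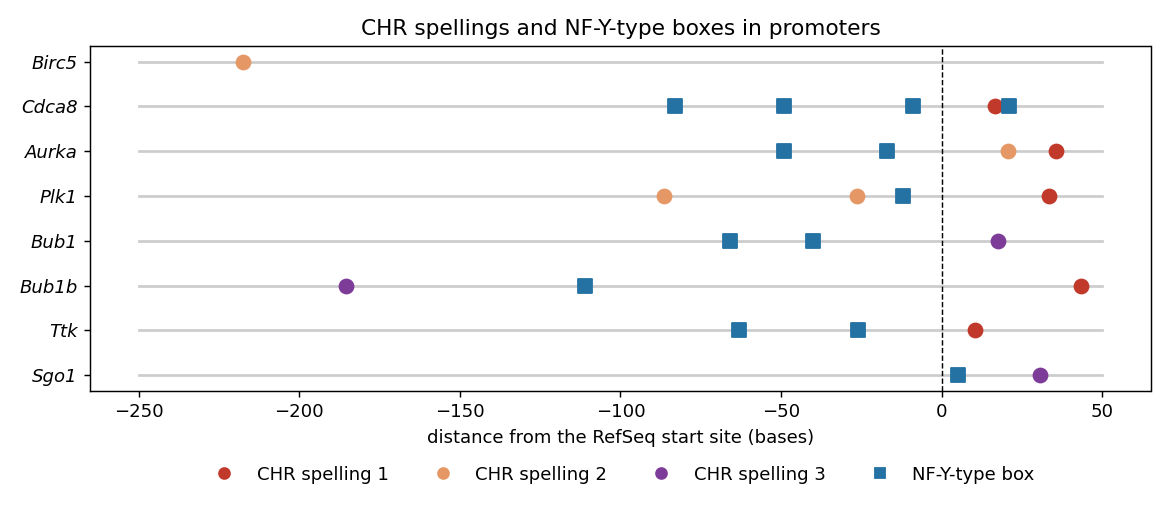
Positions of CHR spellings (circles; spelling 1 is TTTGAA, 2 is TTTAAA and 3 is TTCGAA) and of NF-Y-type boxes (squares; CCAAT on either strand) in the promoter windows of 8 genes, by distance in bases from the RefSeq start site (dashed line). In 7 of the 8 genes a circle lies within the first 50 bases after the start, and Birc5 has a single circle at -220.

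Library totals ranged from 6472484 to 10163101 counts, and 154 of the 12060 tested genes (1.28%) differed between NAM/PN and vehicle in edgeR's quasi-likelihood test at an adjusted p under 0.05, 34 higher and 120 lower with NAM/PN. Levels are given in CPM, that is counts divided by the library total after TMM scaling, which corrects for differences in library makeup. Pax7, Myod1 and the other MuSC and myoblast markers summed to 2530 to 3090 CPM with vehicle and 2050 to 2560 CPM with NAM/PN, and 0 of the 6 were called (edgeR; 1 at an unadjusted p under 0.05). Differentiation markers moved with the condition: all 8 had lower means with NAM/PN, 7 of them called lower (not Ckm), and their sum was 1440 to 2770 CPM with vehicle and 187 to 578 with NAM/PN. Leukocyte markers summed to at most 7.58 CPM and endothelial markers to at most 29.5, with Ptprc, Csf1r, Adgre1, Lyz2, Itgam, Emcn and Flt1 at 0 counts in every library. Fibro-adipogenic markers summed to 153 to 207 CPM with vehicle and 57.0 to 1120 with NAM/PN, with Pdgfra and Lum at 0, Col3a1 called lower and Col1a1 uneven among NAM/PN libraries. Mural markers summed to 285 to 608 and 95.9 to 156 CPM, with Acta2 called lower and Myh11 at 0. The vehicle library of pool 3 stood apart, with 18.7% of its counts on the ribosomal RNA gene CT010467.1 against 9.09% to 9.59% in the other vehicle libraries and 5.22% to 11.6% with NAM/PN. In bulk RNA, fewer cells in mitosis and less of a transcript per cell cannot be told apart, and the part of these markers in the values below was not tested.

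None of the 10 transcripts was called: 0 of 10 passed the adjusted threshold in edgeR, against 1.28% of all tested genes. In DESeq2 it was 0 of 10 against 289 of 12036 genes, and in voom 0 of 10 against 232 of 12060. At an unadjusted p under 0.05 there were 3 of 10 in edgeR, namely Birc5, Bub1 and Sgo1, against 9.28% of all tested genes. The same 3 passed in DESeq2, against 1192 of 12036 genes, and in voom, against 1558 of 12060. All 3 had higher means with NAM/PN and were higher in each of the 4 pools, as were 8.56% of all tested genes. Birc5 alone had every NAM/PN library above every vehicle library, as did 2.79% of tested genes, and none of the 10 had every NAM/PN library below, as did 4.42%. The fitted log2 fold change was above 0 in 7 of 10, against 49.8% of tested genes, with a median of 0.23 and a range from -0.15 to 0.68, while the median of all tested genes was -0.0022. Together the 10 transcripts took 0.110% to 0.150% of the counts of vehicle libraries and 0.163% to 0.183% of those of NAM/PN libraries. These are shares of raw totals, without TMM scaling, and were not computed for other sets of genes. The lowest was in vehicle of pool 3 (18.7% ribosomal RNA) and the highest in NAM/PN of pool 4 (5.22%). Birc5 alone held 2768 of the 9788 counts of the 10 in the former and 7288 of 18625 in the latter.

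**Figure D2:**
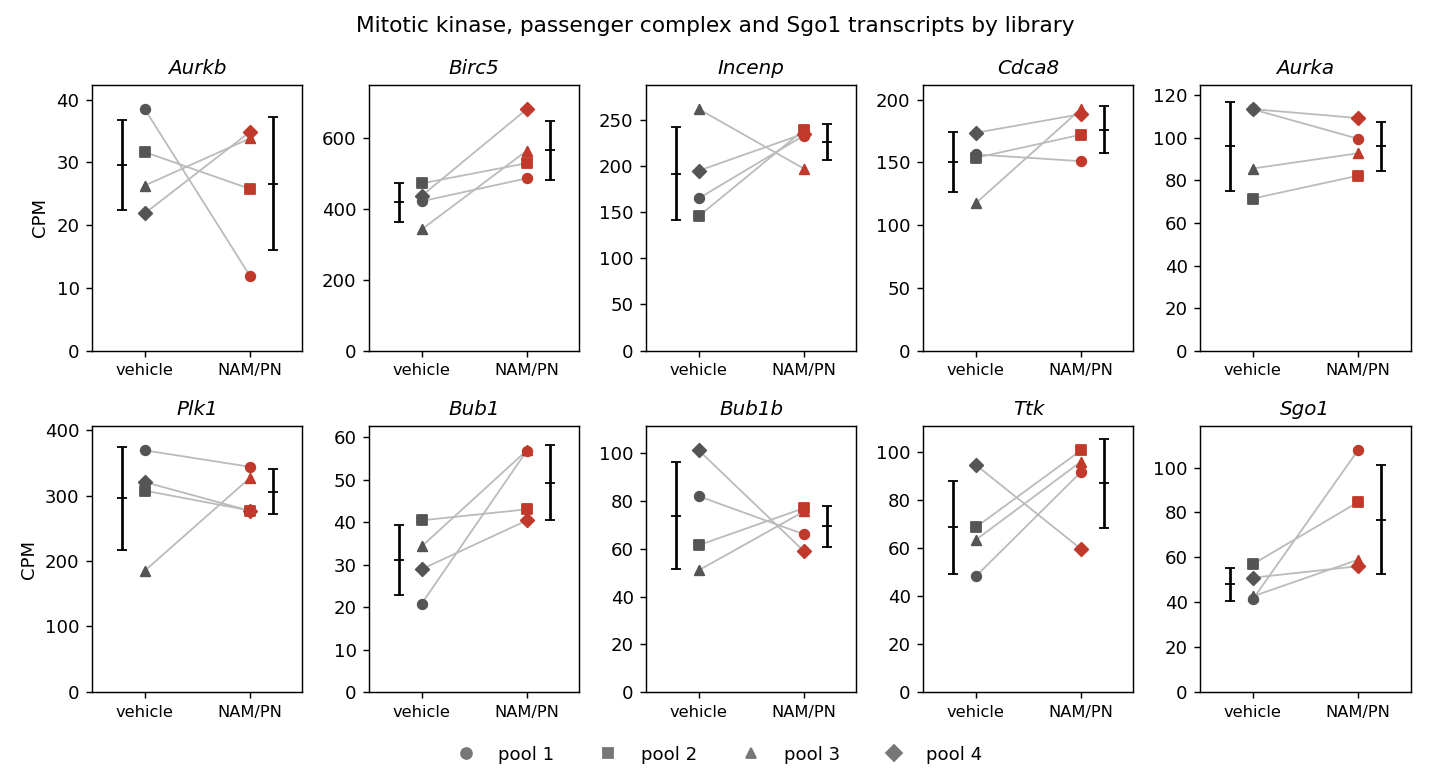
CPM of each of the 10 transcripts (vertical axes, starting at 0) in the vehicle and NAM/PN libraries of the 4 pools (symbols, with a line joining the libraries of a pool); black bars beside the points show the mean ± SD of each condition. The conditions are separate for Birc5 and overlap for the other 9, narrowly for Bub1 and Sgo1.

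In the passenger complex, Birc5, Incenp and Cdca8 had higher means with NAM/PN and Aurkb a lower one, and none of the 4 was called. Birc5 encodes survivin, the subunit that reads a phosphorylated histone tail at the centromere (ENSMUSG00000017716, chr11:117849251-117855743 on GRCm38). In the vehicle cultures of pools 1 to 4 it was at 421, 471.5, 342 and 436.5 CPM, and in the NAM/PN cultures at 486, 528, 564 and 681 CPM. Every NAM/PN library lay above every vehicle library, with pool 4 highest with NAM/PN and pool 3 lowest with vehicle. The means were 418 ± 54.8 and 565 ± 83.7 CPM (SD, n = 4 each), and the fit gave a log2 fold change of 0.43 (SE 0.16, 95% interval 0.09 to 0.78, or 1.07-fold to 1.71-fold) with an edgeR adjusted p of 0.322. The difference between cultures of the same pool was 0.21, 0.16, 0.72 and 0.64 on the log2 CPM scale.

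Aurkb encodes Aurora B, the catalytic subunit (ENSMUSG00000020897, chr11:69045647-69051664). It was at 38.5, 31.6, 26.3 and 21.9 CPM in the vehicle libraries of pools 1 to 4 and at 11.9, 25.8, 33.8 and 34.8 CPM in the NAM/PN libraries. The conditions overlapped, and pool 1 held both the highest library, with vehicle, and the lowest, with NAM/PN. NAM/PN was lower in pools 1 and 2 and higher in pools 3 and 4, and the log2 fold change of -0.15 (SE 0.36, 95% interval -0.91 to 0.60) had an edgeR adjusted p of 0.97. Without pool 1 it was 0.24. Aurkb had the lowest counts of the 10, 97 to 373 per library, and the widest interval.

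Incenp, the scaffold that binds and activates Aurora B (ENSMUSG00000024660, chr19:9872296-9899551), was at 165, 145.5, 261 and 195 CPM with vehicle and 233, 239, 197 and 235 CPM with NAM/PN. Pool 3 ran against the other pools: its vehicle library was the highest of the 8 and its NAM/PN library the lowest of the 4. Across all 4 pools the log2 fold change was 0.24 (SE 0.19, 95% interval -0.16 to 0.64), with an edgeR adjusted p of 0.833. It was 0.42 without the vehicle library of pool 3 and 0.48 without the whole pool. It was 0.13 without the vehicle library of pool 2, 0.098 without the whole pool, and 0.15 without pool 1. Over left-out libraries and pools the edgeR adjusted p ran from 0.336 to 0.991.

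Cdca8 encodes borealin, which ties survivin to the scaffold (ENSMUSG00000028873, chr4:124918465-124939311). Its vehicle libraries were at 156, 154, 117.5 and 174 CPM and its NAM/PN libraries at 151, 172, 192.5 and 188.5 CPM. The conditions overlapped, since NAM/PN in pools 1 and 2 lay below vehicle in pool 4, and the differences by pool ran from -0.05 in pool 1 to 0.71 in pool 3 on the log2 scale. The log2 fold change was 0.23 (SE 0.18, 95% interval -0.15 to 0.60) with an edgeR adjusted p of 0.825. It was 0.12 without the vehicle library of pool 3, the one rich in ribosomal RNA, and 0.08 without pool 3. Cdca8 shares 232 exon bases with 9930104L06Rik on the opposite strand, which had 15 to 172 counts, so reads from the shared stretch could be split between them if strand was not used in counting.

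Whether the subunits moved by different amounts was tested on the log2 ratios of their CPM, over 6 pairs, by two-sided exact permutation tests that cannot give a p below 0.0286. The ratio of Birc5 to Cdca8 was 1.48 ± 0.126 with vehicle and 1.68 ± 0.130 with NAM/PN (log2, SD, n = 4 each; exact p = 0.0571, 0.257 adjusted over the 6). Pools 1 and 4 were higher with NAM/PN (1.43 against 1.68 and 1.33 against 1.85). Pools 2 and 3 hardly differed (1.62 against 1.62 and 1.54 against 1.55). The difference of 0.20 in this ratio was 0.09 without pool 4. The ratio of Aurkb to Birc5 was -3.83 ± 0.364 and -4.50 ± 0.561, lower with NAM/PN in 3 of 4 pools (exact p = 0.0857, 0.257 adjusted), and its difference of -0.67 was -0.27 without pool 1. The ratio of Aurkb to Cdca8 differed by -0.47, and by -0.0871 without pool 1 and -0.81 without pool 4. None of the 6 pairs passed the threshold, and the 4 pairs other than Birc5 to Cdca8 and Aurkb to Birc5 differed by -0.50 to 0.17 with adjusted exact p-values from 0.514 to 0.943. After adjustment over the 6, a single pair at the floor of 0.0286 could not have passed either, so no conclusion is drawn from this.

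The kinases Aurka and Plk1 showed the smallest differences of the 10. Aurka encodes Aurora A, the kinase of spindle poles (ENSMUSG00000027496, chr2:172356190-172370535). It was at 113, 71.5, 85.6 and 113.5 CPM with vehicle and 99.6, 82.2, 92.7 and 109 CPM with NAM/PN, the NAM/PN libraries lying wholly within the range of the vehicle libraries. The log2 fold change was -0.00046 (SE 0.21, edgeR adjusted p = 1.00), and its 95% interval runs from 0.740-fold to 1.35-fold, which leaves room for a difference of that size in either direction.

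Plk1, the polo-like kinase of mitotic entry (ENSMUSG00000030867, chr7:122159439-122169873), was at 369, 307.5, 185 and 321 CPM with vehicle and 344, 277, 327 and 277 CPM with NAM/PN. The vehicle library of pool 3 was the lowest of all, and NAM/PN was the higher culture in pool 3 (by 0.82 on the log2 scale) and the lower one in the other pools (by 0.10 to 0.21). Its log2 fold change of 0.05 (SE 0.19, 95% interval -0.36 to 0.46) had an edgeR adjusted p of 0.986. It was -0.12 without the vehicle library of pool 3 and -0.15 without pool 3. The antisense gene Gm44985, which shares 156 exon bases with Plk1, had 0 counts.

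**Figure D3:**
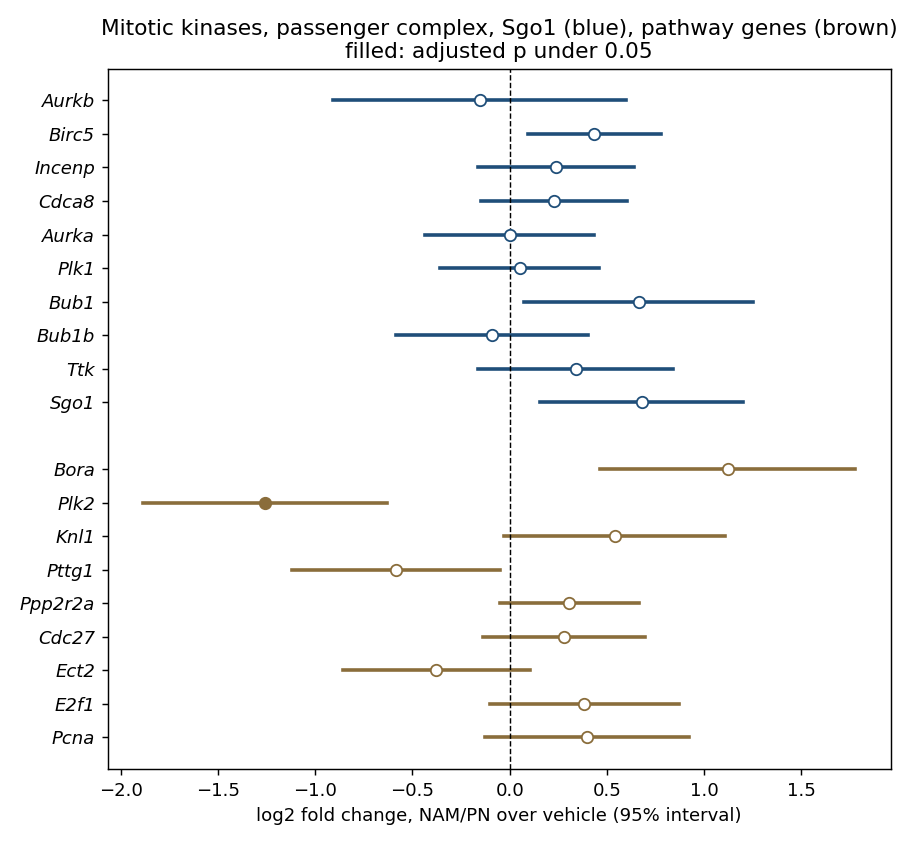
Log2 fold change of NAM/PN over vehicle (horizontal axis) with its 95% interval for the 10 transcripts (blue) and for the gene with the smallest p in each pathway list (brown), from edgeR; filled points have an adjusted p under 0.05. The intervals of Birc5, Bub1 and Sgo1 lie above 0, the other 7 blue intervals cross it, and Plk2 is the only filled point.

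Among the checkpoint kinases, Bub1 was higher with NAM/PN in every pool, Ttk in 3 pools and Bub1b in 2, and none of them was called. Bub1 marks the centromere by phosphorylating histone H2A, the mark that recruits Sgo1 (ENSMUSG00000027379, chr2:127801122-127831865). It was at 20.8, 40.45, 34.3 and 28.95 CPM in the vehicle libraries and at 56.9, 43.05, 56.95 and 40.44 CPM in the NAM/PN libraries. The conditions touched at a single point, the vehicle library of pool 2 against the NAM/PN library of pool 4. Its means were 31.1 ± 8.32 and 49.3 ± 8.82 CPM (SD, n = 4 each), and the fit gave a log2 fold change of 0.66 (SE 0.28, 95% interval 0.08 to 1.25, or 1.05-fold to 2.38-fold) with an edgeR adjusted p of 0.439. By pool the difference was 1.44, 0.09, 0.73 and 0.48, and without pool 1 the log2 fold change was 0.43.

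Ttk encodes Mps1, which starts checkpoint signalling at unattached kinetochores (ENSMUSG00000038379, chr9:83834689-83872389). Vehicle libraries were at 48.1, 68.5, 63.2 and 94.5 CPM and NAM/PN libraries at 91.5, 100.5, 95.8 and 59.5 CPM. Pool 4 was reversed, holding the highest vehicle library and the lowest NAM/PN library. The log2 fold change was 0.34 (SE 0.24, 95% interval -0.16 to 0.84, edgeR adjusted p = 0.787), and it was 0.53 without the vehicle library of pool 4 and 0.68 without the whole pool. Without the vehicle library of pool 1 it was 0.20, and without the whole pool 0.17. Over left-out libraries and pools its edgeR adjusted p ran from 0.312 to 0.991.

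Bub1b encodes BubR1, a part of the complex that inhibits the anaphase-promoting complex (ENSMUSG00000040084, chr2:118598211-118641591). It was at 82.1, 61.5, 51.0 and 101 CPM with vehicle and 66.1, 77.05, 75.7 and 59.0 CPM with NAM/PN. NAM/PN libraries lay inside the range of the vehicle libraries, higher than their own vehicle culture in pools 2 and 3 and lower in pools 1 and 4. The log2 fold change was -0.09 (SE 0.24, 95% interval -0.59 to 0.40, edgeR adjusted p = 0.975), and it was 0.17 without pool 4.

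Sgo1, shugoshin, protects centromeric cohesin from removal until anaphase and binds the passenger complex through borealin (ENSMUSG00000023940, chr17:53674786-53689333). It was at 41.3, 56.95, 42.6 and 50.9 CPM with vehicle and 108, 84.6, 58.9 and 56.04 CPM with NAM/PN. Pools 1 and 2 were the highest with NAM/PN, and the conditions overlapped only in that the vehicle library of pool 2 exceeded the NAM/PN library of pool 4. The means were 47.9 ± 7.36 and 76.8 ± 24.3 CPM (SD, n = 4 each), and the log2 fold change of 0.68 (SE 0.25, 95% interval 0.16 to 1.20, or 1.12-fold to 2.30-fold) had the smallest edgeR adjusted p of the 10, 0.302. Without pool 1 it was 0.40. The spread among NAM/PN libraries, a coefficient of variation of 31.6%, was larger than that among vehicle libraries, 15.3%.

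**Figure D4:**
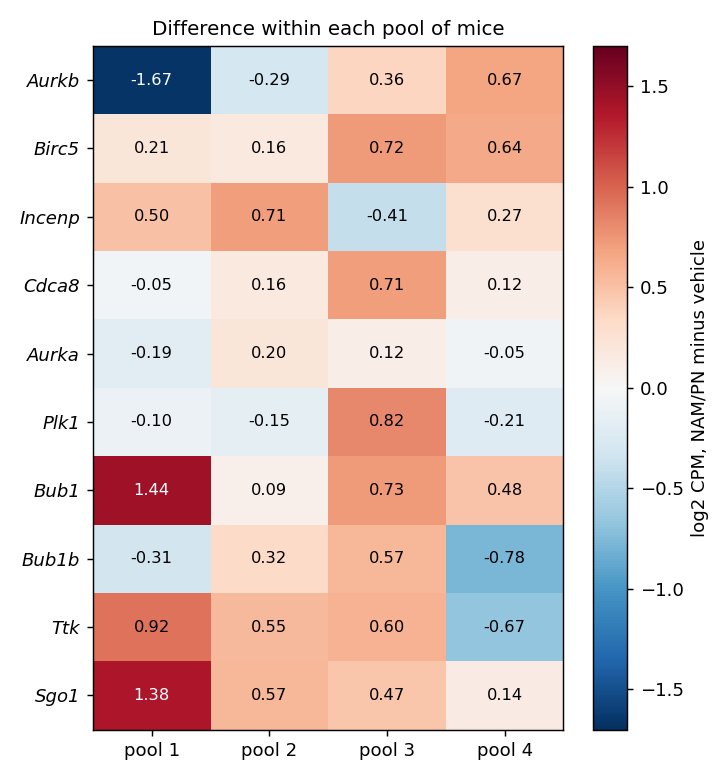
Difference in log2 CPM between the NAM/PN and vehicle cultures of each pool (columns) for each transcript (rows); red is higher and blue lower with NAM/PN, and the numbers are the differences. Only Birc5, Bub1 and Sgo1 are red in all 4 pools, and the extremes, 1.44 for Bub1 and -1.67 for Aurkb, are both in pool 1.

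The 10 transcripts did not vary as a block. Over the 8 libraries the 45 pairwise correlations of log2 CPM had a median of 0.213 and ranged from -0.716 (Aurkb with Sgo1) to 0.852 (Birc5 with Cdca8), a description of points that share library, depth and treatment. Relative to each transcript's own mean, 6 or 7 of the 10 were above it in each NAM/PN library, 3 to 5 in the vehicle libraries of pools 1, 2 and 4, and 1 in the vehicle library of pool 3. That last library, the one rich in ribosomal RNA, was the lowest of the 8 for Birc5, Cdca8, Plk1 and Bub1b and the highest for Incenp. Leaving it out, the log2 fold change of Birc5 was 0.34, and 0 of 10 were called in edgeR, against 156 of 12559 tested genes. An unadjusted p under 0.05 was found for 4 of 10, against 1194 of the 12559. The genes whose log2 CPM followed the mean of the 10 most closely over the 8 libraries were Nudt4 (Pearson r = 0.964), Pabpc4 (0.959), Sec24d (0.955), Cdyl (0.953) and Cercam (0.952), of which Cercam was near the floor with vehicle (1.37 CPM). They were picked as the highest of all tested genes over only 8 libraries, so high values follow in part from the choice. Shared regulation was not tested.

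The wider mitotic pathway was described with 97 further genes in 9 lists by role, of which 96 were tested (Aurkc had 0 counts). A single gene was called, Plk2, which was lower with NAM/PN, and 0 were called higher (edgeR; 2 higher and 3 lower at an unadjusted p under 0.05). Against 1.28% and 9.28% of all tested genes, neither the 1 call nor the 5 unadjusted ones among 96 genes exceeded the background. The median log2 fold change was 0.08, with 61 genes above 0 and 35 below, against a median of -0.0022 and 49.8% above 0 among all tested genes. Plk2 is a polo-like kinase known for centriole duplication and as a p53 target rather than for mitosis itself. It was at 95.2, 91.8, 61.4 and 65.5 CPM with vehicle and 30.9, 45.8, 39.6 and 15.3 CPM with NAM/PN, lower in every pool and without overlap. Its log2 fold change was -1.26 (SE 0.30, 95% interval -1.88 to -0.63) with an edgeR adjusted p of 0.0422. The call was lost without any library other than vehicle of pool 3 or NAM/PN of pool 2, without any pool, and with library totals in place of the trimmed mean (edgeR adjusted p 0.053 to 0.325), with log2 fold changes from -1.46 to -1.02.

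Among activators and partners of Aurora A and Plk1, 0 of 7 were called (edgeR; 1 at an unadjusted p under 0.05) and the median was 0.04. That gene was Bora, the cofactor with which Aurora A activates Plk1, at 13.3, 23.7, 21.4 and 30.4 CPM with vehicle and 36.1, 60.6, 43.4 and 52.9 CPM with NAM/PN. The conditions did not overlap, and the log2 fold change of 1.12 (SE 0.31) had an edgeR adjusted p of 0.0989. Tpx2, the spindle activator of Aurora A, was at 186 ± 19.9 and 191 ± 20.6 CPM (edgeR adjusted p 0.987). Of 15 other mitotic kinases tested, 1 was called, Plk2, and 2 had an unadjusted p under 0.05, Plk2 and Nek9, both lower. Nek9 was at 49.7 ± 6.14 and 33.7 ± 5.27 CPM, lower in all 4 pools and without overlap (log2 fold change -0.56, edgeR adjusted p 0.496). Haspin, which writes the histone mark that survivin reads, was at 8.79 ± 6.44 and 18.6 ± 10.3 CPM (edgeR adjusted p 0.658), and Cdk1 at 319 ± 132 and 309 ± 70.6 CPM (edgeR adjusted p 0.990).

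Of the 10 checkpoint proteins without kinase activity, 0 were called (edgeR; 0 at an unadjusted p under 0.05), with a median of 0.09. Knl1, the kinetochore scaffold that Ttk phosphorylates and Bub1 binds, was at 53.6 ± 24.1 and 77.9 ± 14.1 CPM and higher in all 4 pools (log2 fold change 0.54, edgeR adjusted p 0.588). The vehicle library of pool 3 held Knl1 at 89.2 CPM against 36.1 to 45.9 in the other vehicle libraries, and the log2 fold change was 0.89 without it and 0.82 without pool 3 (edgeR adjusted p 0.0889 to 0.923 over left-out libraries and pools). In all, 3 of the 10 were higher with NAM/PN in all 4 pools, Knl1, the checkpoint effector Mad2l1 (0.45, edgeR adjusted p 0.600) and Trip13 (0.28, 0.784), the last without overlap. Lower in all 4 pools were 2, Zwilch (-0.47, edgeR adjusted p 0.774) and Mad2l1bp (-0.28, 0.900). Among all 12060 tested genes, 8.56% were higher in all 4 pools, 1324 were lower in all 4, and 2.79% were higher without overlap. The 9 genes of cohesion protection and separase had a median of 0.04 and 0 calls (edgeR; at an unadjusted p under 0.05, 1 higher, Ppp2r1a, and 1 lower, Pttg1). There, Pttg1, securin, was lower in all 4 pools and without overlap (75.9 ± 11.6 and 50.6 ± 15.4 CPM, log2 fold change -0.58, or -0.38 without NAM/PN of pool 3, edgeR adjusted p 0.469). Sgo2a, the paralogue of Sgo1, had a log2 fold change of 0.39 (edgeR adjusted p 0.656).

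The remaining lists held 0 called genes each in edgeR and 0 at an unadjusted p under 0.05. Opposing phosphatases and inhibitors (8 genes) had a median of 0.09, the anaphase-promoting complex (19) 0.11, substrates and midzone partners of the passenger complex (10) 0.13 and regulators of mitotic genes (12) 0.02. Their smallest p-values were those of Ppp2r2a (log2 fold change 0.31, edgeR adjusted p 0.658), Cdc27 (0.28, 0.788), Ect2 (-0.38, 0.724) and E2f1 (0.38, 0.715). Foxm1, a transcription factor of mitotic genes, was at 54.5 ± 13.1 and 58.5 ± 9.76 CPM. The 6 proliferation markers all had log2 fold changes above 0, from 0.03 for Top2a to 0.40 for Pcna, with a median of 0.08 and edgeR adjusted p-values of at least 0.743. Ccnb1 and Pcna were higher in all 4 pools, as were 8.56% of all tested genes. Mki67, Top2a, Ccna2 and Ccnb2 were higher in only 2 of the 4 pools. Without the NAM/PN library of pool 4 the log2 fold change was 0.21 for Pcna and 0.22 for E2f1, and without pool 4 it was 0.23 for Pcna.

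**Figure D5:**
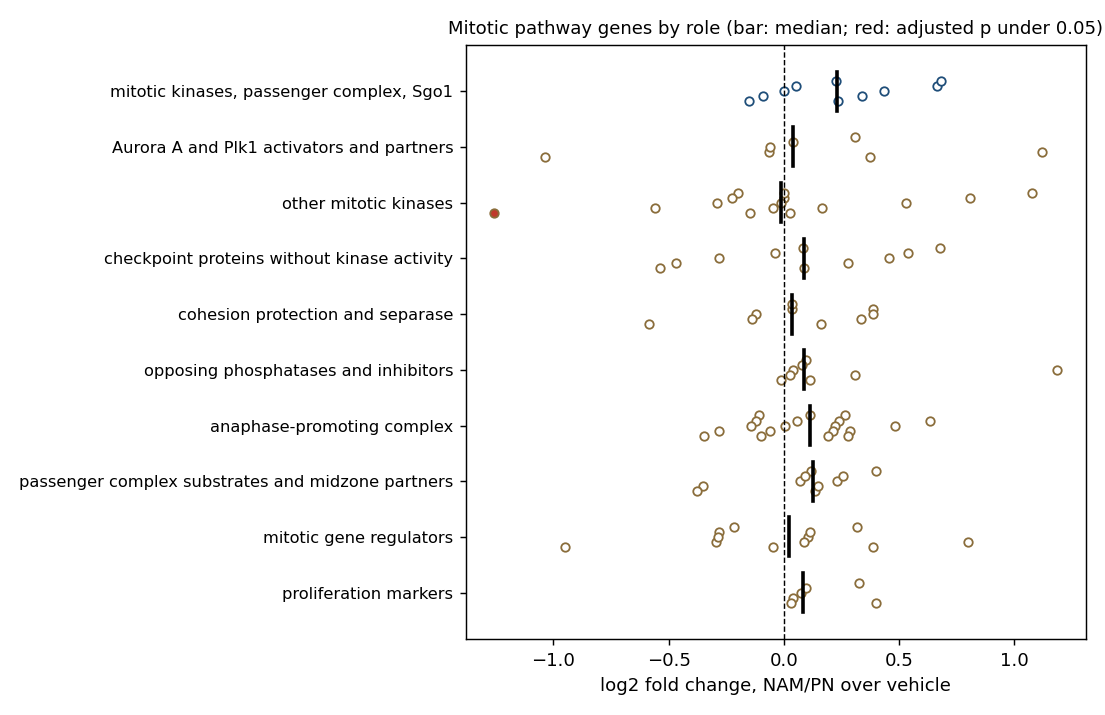
Log2 fold change of NAM/PN over vehicle (horizontal axis) for each tested gene (circles) of the 10 transcripts and of the 9 pathway lists; bars mark list medians and the red point has an edgeR adjusted p under 0.05. The medians of the pathway lists lie between -0.01 and 0.13, that of the 10 transcripts is 0.23, and Plk2 at -1.26 is the red point.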

How the data were processed

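RNA of 8 cultures was sequenced with a QuantSeq 3′ kit from 30 ng of RNA, which reads the 3′ end of transcripts. The authors demultiplexed with Bcl2FastQ, aligned to GRCm38 with STAR and counted reads per gene with HTSeq 2.16.2. The deposited values are raw counts, neither normalized nor filtered. The annotation release, strand setting and treatment of multiply mapped reads are not given in the sources used here, and gene names came from GENCODE M21 (55227 of 55487 identifiers).

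Libraries were grouped by their labels. In R 4.3.3 with edgeR 4.0.16, genes were filtered with filterByExpr (minimum count 10, minimum total 15) and scaled by TMM (trimmed mean of M-values), and conditions were compared by the quasi-likelihood test without a block, as the study's methods describe for mouse muscle, with Benjamini-Hochberg adjustment over the 12060 tested genes and a threshold of 0.05. The code was tested on simulated data, with changed genes drawn at random from all tested genes. It called 28 of 100 genes changed 2-fold, 51 of 100 changed 4-fold and 4 unchanged genes. Intervals of 95% come from the fitted t distribution. Log2 CPM used a prior count of 2. At a floor of 3 counts, libraries detect 0.295 to 0.464 CPM, counting error only. The pool number pairs cultures of the same mice, but the deviations of paired libraries correlated by only -0.0332 to 0.0313. Replicates differed by more than counting noise in every pair (lowest chi-square divided by its degrees of freedom, 22.8).

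Alternatives were DESeq2 1.42.0, voom with quality weights (limma 3.58.1), the replicate block, no filter, no TMM, a robust fit, thinning, a threshold of 0.10, a prior count of 0.5 and leaving out each library or pool. The genes and lists were chosen with earlier results of these data known. Named genes are the 10 transcripts, the gene with the smallest p in each pathway list and the 5 genes most like the mean of the 10. Tpx2, Haspin, Cdk1, Mad2l1, Trip13, Zwilch, Mad2l1bp, Nek9, Ppp2r1a, Sgo2a, Foxm1, Top2a, Mki67, Ccna2, Ccnb1 and Ccnb2 were named after their values were seen. A comparison of protein sequences was not run.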

Additional observations from a re-analysis of the deposited data

Results flagged for a closer look

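Dixon's test for a library far from the other 3 of its condition was run on 54 groups, where chance gives about 2.7 marks, and marked 4. Incenp in the NAM/PN library of pool 3 was at 197 CPM, below the 233 to 239 CPM of the other NAM/PN libraries. Pttg1, securin, was at 27.7 CPM in the same library, against 56.3 to 61.7 CPM in the others. Cercam, one of the genes most like the mean of the 10 transcripts, was at 4.90 CPM in the vehicle library of pool 4 and at 0 to 0.592 CPM in the other vehicle libraries. The ribosomal RNA gene CT010467.1 took 18.7% of the counts of the vehicle library of pool 3 and 9.09% to 9.59% in the other vehicle libraries.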

How the results depend on the processing

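None of the 10 transcripts was called under any of the 20 alternatives, edgeR, DESeq2 and voom included. The smallest adjusted p was 0.125 (Birc5, DESeq2), and 1 to 4 of the 10 had an unadjusted p under 0.05. Among all tested genes this ran from 889 of 12142 (edgeR without pool 2) to 1558 of 12060 (voom). With the replicate block, 156 genes were called (130 of them also without it), 0 of the 10 transcripts and 1 pathway gene, and the block changed no call among the genes named. Over left-out libraries and pools, the log2 fold change ranged from 0.33 to 0.53 for Birc5, 0.43 to 0.87 for Bub1 and 0.40 to 0.83 for Sgo1. Genes called numbered 289 with DESeq2, 366 without the filter (135 higher, 231 lower), 232 with voom and 244 at a threshold of 0.10. They were 42 to 177 with a library or pool left out, and fell by over 1.5 times without vehicle 2 (80), vehicle 4 (87), NAM/PN 1 (92), pool 1 (65), pool 2 (42) or pool 4 (94). Pathway genes called were 0 without TMM, 2 without the filter (Bora added, edgeR adjusted p 0.0435), 2 at the threshold of 0.10, and 0 to 1 with a library or pool left out.

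Some signs turned, and the cause was not tested. Aurka was at 0.0181 with the replicate block, 0.06 without TMM and -0.119 to 0.0865 over left-out libraries and pools. Plk1 was at -0.0037 with voom and -0.15 to 0.17 over left-out libraries and pools, Aurkb at -0.43 to 0.24 and Bub1b at -0.28 to 0.17. Over left-out pools the difference in log2 ratio ran from -0.898 to -0.265 for Aurkb to Birc5, -0.809 to -0.0871 for Aurkb to Cdca8, 0.0893 to 0.263 for Birc5 to Cdca8, -0.925 to 0.0521 for Aurkb to Incenp (-0.50 with all pools), -0.16 to 0.40 for Birc5 to Incenp and -0.14 to 0.42 for Incenp to Cdca8. The paired sign-change test of these ratios cannot go below 0.125 and gave exact p-values from 0.125 to 1. At this depth and with 4 cultures a condition, the intervals leave room for differences of up to 1.35-fold in Aurka and 2.38-fold in Bub1.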
